A study of Homo sapiens with 34 samples.

Results

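The libraries described here are the 4 made from H1 human embryonic stem cells carrying a short hairpin RNA (shRNA) against ZNF503, 2 from day 2 and 2 from day 6 of directed differentiation to heart cells. They were chosen by their labels, and they are 4 of the 34 RNA sequencing libraries of the series. H1 is an established human embryonic stem cell line. The study asked which genes with a heart-like chromatin and expression signature are needed for cardiogenesis, and took lines in which NKX2-5, ZEB2 or ZNF503 was targeted, beside a wild-type (WT) line, through the same protocol. All of these lines, WT included, had been infected with a lentiviral shRNA vector and selected with puromycin. In the WT line the vector was empty or held an shRNA against green fluorescent protein, so the vector and the drug are shared by every group. For ZNF503, 1 shRNA line was followed, taken from several vectors because real-time PCR showed the best knockdown with it, so a second hairpin against ZNF503 was not analysed here. All lines were differentiated without added FGF2, TGFβ or insulin, with the GSK3β inhibitor CHIR99021 over the first day and the WNT inhibitor IWP2 in the days between the libraries of day 2 and day 6. The labels place the cells of both days on the cardiac lineage, and that wording is checked below against heart, endoderm and other marker genes.

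In this protocol a pulse of WNT signalling drives pluripotent cells into a primitive streak state, from which mesoderm and definitive endoderm both arise, and WNT inhibition then favours cardiac mesoderm. Cardiac progenitors switch on transcription factors such as NKX2-5, TBX5, GATA4 and HAND2 and then the genes of the sarcomere, the contractile unit of muscle. Foregut and yolk sac endoderm instead use SOX17, FOXA2 and HNF4A and secrete apolipoproteins, fibrinogen and transthyretin. ZNF503 encodes a zinc finger protein of the NET family, which represses transcription and binds Groucho/TLE corepressors.

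The libraries of the ZNF503 shRNA cells held 87840757 and 20894685 counts at day 2 and 19424197 and 25036221 counts at day 6, within a range of 13806093 to 87840757 over the 18 libraries used. Levels are given as counts per 1000000 counts of the library (CPM) after scaling by edgeR's trimmed mean of M values (TMM), and each pair of values is replicate 1 then replicate 2 (n = 2 libraries per group throughout). The quasi-likelihood test of edgeR with Benjamini-Hochberg adjustment over all tested genes gave every adjusted p. A gene is said to have risen or fallen when it passed a false discovery rate (FDR) of 5%, and to be called when it also changed at least 8-fold at 1% FDR. Where every library of a day held at most 3 counts, the fold is a lower bound against that 3-count level (a mean of 0.0856 CPM at day 2 and 0.140 CPM at day 6), which covers counting error only. The study calls the replicates biological, and the labels do not say whether they came from separate cultures, so p-values measure only the spread between these libraries. Replicate libraries differed by more than sampling noise, with a mean chi-square per gene of 13.7 at day 2 and 22.2 at day 6. In such bulk libraries fewer cells of a type and less RNA per cell cannot be told apart.

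ZNF503 itself (minus strand, chr10:77157588-77161522 of GRCh37) lay at 0.160 and 0.111 CPM at day 0, 1.00 and 1.79 CPM at day 2 and 0.622 and 0.659 CPM at day 6. The day 6 libraries were below the day 2 libraries, but the change did not pass the test (log2 fold change -1.08, SE 0.49, adjusted p = 0.068). WT cells had 1.11 and 2.00 CPM at day 2, which overlapped with the ZNF503 shRNA cells, and 8.76 and 9.36 CPM at day 6, which did not. ZNF503 was therefore below WT cells at day 6 and overlapped with them at day 2. The day 2 to day 6 change was lower than in WT cells by a log2 difference of -3.61 (SE 0.49, adjusted p = 1.6e-05). The NKX2-5 shRNA cells, in which ZNF503 was not targeted, had levels in the same range, 1.41 and 1.64 CPM at day 2 and 0.605 and 0.920 CPM at day 6, and the difference from their change was -0.05 (SE 0.52, adjusted p = 0.98). Whether the counting used strand is not stated. Reads of ZNF503 and of its antisense neighbour ZNF503-AS2 therefore cannot be told apart where these genes overlap (chr10:77161277-77161522 of GRCh37). Among the corepressors that NET proteins bind, TLE2 rose from 2.30 and 1.79 to 47.5 and 39.9 CPM (log2 fold change 4.34, SE 0.23, adjusted p = 4.4e-10). TLE4 fell by 1.20 on the log2 scale and TLE1 did not pass the test. TLE3 rose by 0.48 (adjusted p = 0.0057, or 0.075 without day 2 replicate 1).

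Between day 2 and day 6 the ZNF503 shRNA cells lost the pluripotency and primitive streak genes and gained a large set of endoderm, liver and yolk sac genes together with part of the heart program. Of 16806 genes tested, 5274 rose (31.4%) and 5809 fell (34.6%), and the median log2 fold change was -0.05. The 8-fold threshold was passed by 891 genes that were higher at day 6 (5.30%) and by 759 that were lower (4.52%). The libraries of the 2 days did not overlap for any of these 1650 genes, nor for 82.1% of all tested genes, so separation alone carries little weight. Counts of list members below are to be read against the shares of all genes given here. The gene with the largest gain from an undetected start was HABP2, a plasma serine protease, at 0 CPM in both day 2 libraries and 435 and 429 CPM at day 6, at least 5041-fold higher. NPPB, the natriuretic peptide made by heart muscle, also started at 0 and reached 118 and 87.0 CPM, at least 1198-fold higher. ANKRD1, a muscle ankyrin repeat protein, had 0.0563 and 0 CPM at day 2 and 634 and 640 CPM at day 6. The 10 largest gains also included TTR, FGB, APOA1 and HNF4A, described below, and TDO2 and SLCO2B1, a liver tryptophan dioxygenase and an organic anion transporter, at least 348-fold and at least 291-fold higher.

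**Figure D1:**
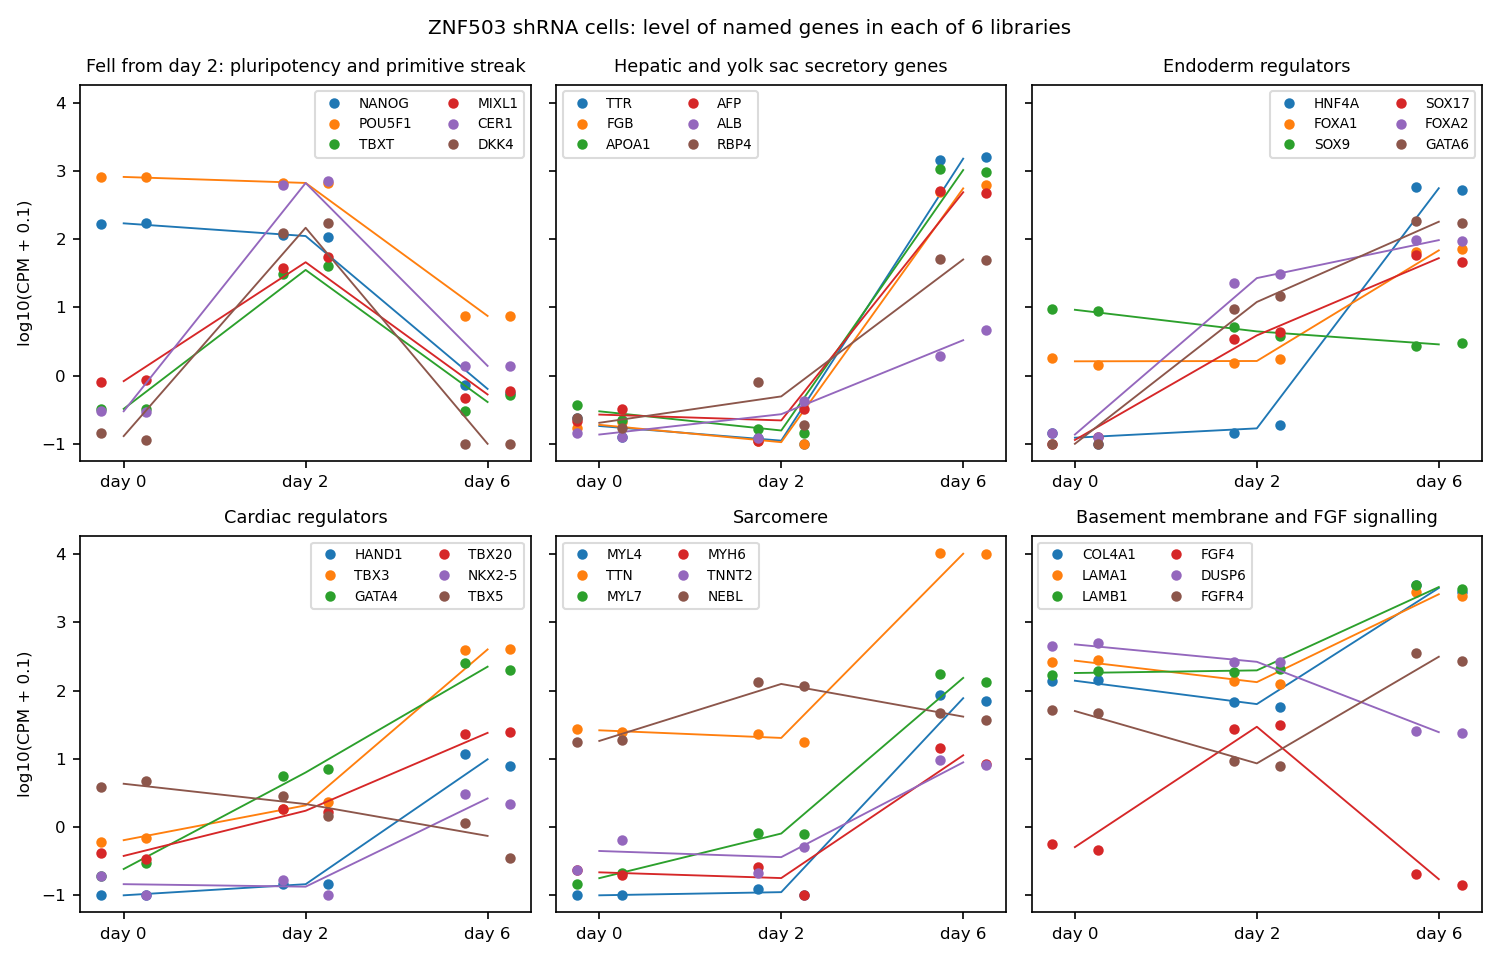
Levels of 36 genes in each ZNF503 shRNA library at days 0, 2 and 6, on a log10 axis of CPM + 0.1. Each point is 1 library and each line joins the means of the 2 replicates. TTR, FGB and HNF4A lie at the bottom of the axis until day 2 and above 400 CPM at day 6, while NANOG is high until day 2 and low at day 6, and TBXT and CER1 peak at day 2.

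The strongest group change was in the 28 genes listed for hepatic and yolk sac secretory products. All 23 members that could be tested rose (31.4% of all genes did) and 21 of them were called (5.30% of all genes), and the median log2 fold change was 7.95, or 6.52 with the 10 members that were at the count limit at day 2 set to their bound, against -0.05 over all genes. The other 5 members had too few counts to test. The 10 members at the count limit at day 2 entered the test only through libraries of other days. Their rise was largely set by the count filter and adds little to the count of 23. The list was also chosen with earlier results of these data known. The summed level of the list went from 309 and 269 CPM to 9963 and 9935 CPM. The promoters of the 5 tested members whose window holds letters of the forkhead motif, which FOXA factors of endoderm bind, are shown because FOXA genes rose in the same cells. Each line gives the 250 bases before the RefSeq start of the gene in GRCh38.p14, read 5′ to 3′ on the gene's strand, and capitals mark TGTTTAC or TGTTTGC or their reverse complements GTAAACA and GCAAACA.
APOA2 (chr1:161223629-161223878, minus strand): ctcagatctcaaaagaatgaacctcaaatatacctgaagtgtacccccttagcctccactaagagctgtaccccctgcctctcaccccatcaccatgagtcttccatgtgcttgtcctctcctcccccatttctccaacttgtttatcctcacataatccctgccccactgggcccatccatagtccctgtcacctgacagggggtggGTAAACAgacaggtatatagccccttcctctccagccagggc
FABP1 (chr2:88128063-88128312, minus strand): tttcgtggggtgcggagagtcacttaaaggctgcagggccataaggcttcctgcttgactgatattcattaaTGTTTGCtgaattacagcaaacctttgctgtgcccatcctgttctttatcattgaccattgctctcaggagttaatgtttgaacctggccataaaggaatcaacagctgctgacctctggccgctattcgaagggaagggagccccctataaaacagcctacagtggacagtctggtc
FGA (chr4:154590743-154590992, minus strand): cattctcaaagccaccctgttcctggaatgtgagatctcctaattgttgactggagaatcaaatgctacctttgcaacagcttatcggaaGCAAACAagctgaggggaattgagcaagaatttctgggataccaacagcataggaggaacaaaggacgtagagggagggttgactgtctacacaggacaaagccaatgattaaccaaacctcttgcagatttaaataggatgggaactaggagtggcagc
AMBP (chr9:114078301-114078550, minus strand): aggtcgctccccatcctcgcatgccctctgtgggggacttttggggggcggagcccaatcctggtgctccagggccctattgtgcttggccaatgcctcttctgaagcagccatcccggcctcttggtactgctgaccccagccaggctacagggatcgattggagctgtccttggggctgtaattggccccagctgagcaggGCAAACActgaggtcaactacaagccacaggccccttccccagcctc
VTN (chr17:28370308-28370557, minus strand): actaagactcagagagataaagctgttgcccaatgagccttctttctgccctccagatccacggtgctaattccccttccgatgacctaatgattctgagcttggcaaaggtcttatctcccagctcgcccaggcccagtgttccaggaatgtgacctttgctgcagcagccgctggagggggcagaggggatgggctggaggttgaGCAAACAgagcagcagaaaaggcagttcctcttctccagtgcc

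Of 24 listed members with a RefSeq promoter sequence, 6 (25.0%) held these FOXA letters on either strand in these 250 bases, against 6.05% of 27305 promoters of the same length. The sixth, AHSG, had too few counts to test. Listed members without such a sequence, TTR and APOB among them, are not covered by these shares. Of the 19 tested members with a promoter 5 (26.3%) held them, and 5.88% of the sarcomere list did. The GATA letters AGATAA were in 25.0% of the listed but 15.8% of the tested members, in 9.37% of all promoters and in 35.3% of the sarcomere list. The HNF4 letters AAGTCCA were in 2 of the 24 members (8.33%), 1 of them tested, and in 2.76% of all promoters. These matches are a description of letters and not of binding, and none of the motifs is contained in another. Among the genes printed, APOA2, an apolipoprotein of high-density lipoprotein, rose from 0.192 and 0.275 to 289 and 326 CPM, and VTN, the adhesive plasma protein vitronectin, from 0.0113 and 0 to 103 and 91.0 CPM. FABP1, a fatty acid carrier of liver and gut, stayed lower, at 3.84 and 4.12 CPM at day 6.

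The proteins carried by the plasma and yolk sac showed the widest ranges. TTR, which carries thyroid hormone, had 0.0225 and 0 CPM at day 2 and 1438 and 1577 CPM at day 6, at least 17604-fold higher. FGB, the fibrinogen beta chain, had 0.0113 and 0 CPM at day 2 and 492 and 615 CPM at day 6, at least 6458-fold higher. In both genes the day 2 libraries held no more than 2 counts and the day 6 libraries were close to each other.

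Apolipoproteins, the protein part of lipid particles, followed the same course. APOA1 rose from 0.0676 and 0.0458 to 1079 and 975 CPM (log2 fold change 13.91, SE 0.25, adjusted p = 2.0e-14). APOB (chr2:21224301-21266945 of GRCh37, minus strand), the structural protein of low-density lipoprotein, rose from 0.924 and 1.28 to 2843 and 2898 CPM (log2 fold change 11.44, SE 0.19, adjusted p = 1.8e-14). APOE was already at 282 and 244 CPM at day 2 and rose to 1834 and 1509 CPM, a log2 fold change of 2.64. The fetal plasma protein AFP rose from 0.0113 and 0.229 to 504 and 468 CPM (log2 fold change 13.02, SE 0.33, adjusted p = 2.4e-13), whereas albumin (ALB), its adult relative, went only from 0.0225 and 0.321 to 1.87 and 4.53 CPM (log2 fold change 5.03, SE 0.79, adjusted p = 6.1e-05). The libraries of the 2 days did not overlap for any of these genes. The retinol carrier RBP4 rose by 6.52 and CUBN, the endocytic receptor of yolk sac and kidney epithelium, by 8.78 on the log2 scale. Genes for lipid uptake and absorption shared part of this list: 11 of 12 tested members rose, 8 were called, and the median was 6.20 (4.99 with bounds). MTTP, which loads lipid onto APOB, rose from 0.0676 and 0.367 to 204 and 249 CPM, and SOAT2, which esterifies cholesterol, started at 0 in both libraries and was at least 175-fold higher.

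Of 20 listed endoderm transcription factors, 17 were tested, 10 rose, 3 fell (PROX1, SOX9 and NR5A2) and 4 did not pass. The fall of SOX9 (adjusted p = 0.019) was lost with days 2 and 6 only (adjusted p = 0.066) and with all lines at those days (0.069). It was also lost without day 2 replicate 1 (log2 fold change -0.48) or day 6 replicate 1 (-0.63). Of the 17 tested, 7 were called higher, and the median log2 fold change was 2.53. HNF4A (chr20:42984339-43061485 of GRCh37, plus strand), a nuclear receptor of liver and visceral endoderm, rose from 0.0451 and 0.0916 to 584 and 528 CPM (log2 fold change 13.23, SE 0.26, adjusted p = 3.1e-14). HNF4A was thus near 0 at day 2 and high in both day 6 libraries. SOX17, an early endoderm factor, rose from 3.29 and 4.26 to 58.4 and 46.4 CPM (log2 fold change 3.81, SE 0.21, adjusted p = 8.6e-10). FOXA2, a pioneer factor, rose from 22.5 and 30.9 to 97.9 and 95.0 CPM, a log2 fold change of 1.83. FOXA1 rose by 5.49 and GATA6, shared with heart, rose by 3.93 on the log2 scale.

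The heart program was split. Of 23 tested cardiac transcription factors 18 rose (31.4% of all genes did), 3 fell (TBX5, IRX4 and MEF2A) and 2 did not pass. Of the 23, 17 were called higher (5.30% of all genes), and the median log2 fold change was 3.93. Factors that gained most were TBX3, HAND1, MEIS1 and TBX2. TBX3, a T-box repressor, rose from 1.71 and 2.25 to 397 and 404 CPM (log2 fold change 7.72, SE 0.16, adjusted p = 4.1e-14), and GATA4, which heart and endoderm share, from 5.45 and 6.96 to 251 and 197 CPM. HAND1, a factor of heart and extraembryonic mesoderm, rose from 0.0451 and 0.0458 to 11.8 and 7.66 CPM. The factors that mark the working heart field stayed low. NKX2-5, a homeobox factor of cardiac progenitors, rose from 0.0676 and 0 to 2.96 and 2.10 CPM (log2 fold change 5.50, SE 0.77, adjusted p = 1.8e-05). TBX5, which patterns the first heart field, went from 2.77 and 1.37 to 1.04 and 0.247 CPM (log2 fold change -1.87, SE 0.50, adjusted p = 0.0042). That fall was smaller and no longer passed without day 2 replicate 1 (log2 fold change -1.23) or without day 6 replicate 2 (-1.11). HAND2 rose from 0.248 and 0.733 to 1.35 and 2.26 CPM, a log2 fold change of 2.12 (adjusted p = 0.0059), and was lost without the same libraries (adjusted p = 0.14 and 0.074). The small fall of MEF2A (-0.32, adjusted p = 0.028) depended on the processing. It did not pass with DESeq2's size factors (adjusted p = 0.062) or with the DESeq2 package (0.061). Nor did it pass with days 2 and 6 only (0.089) or with all lines (0.062). It was also lost without day 2 replicate 1 (-0.31), day 2 replicate 2 (-0.33) or day 6 replicate 1 (-0.20). Against the label of a cardiac lineage, the day 6 libraries thus held GATA4 and TBX3 but NKX2-5 at no more than 2.96 CPM and TBX5 at no more than 1.04 CPM.

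Sarcomere genes rose in most cases and from very low levels. Of 22 tested members 16 rose (31.4% of all genes did), 3 fell (TNNI3, TCAP and NEBL) and 3 did not pass (ACTN2, MYOM1 and CASQ2). Of the 22, 14 were called higher (5.30% of all genes) and 1 lower (4.52%). The fall of TCAP, the telethonin of the Z-disc, was lost with the DESeq2 package (adjusted p = 0.057). It was also lost without day 2 replicate 1 (log2 fold change -1.80) or day 6 replicate 1 (-1.40). The median log2 fold change was 6.14, or 4.91 with the 6 members at the count limit at day 2 set to their bound. TTN (chr2:179390716-179695529 of GRCh37, minus strand), the giant spring of the sarcomere, rose from 23.0 and 17.3 to 10341 and 9907 CPM (log2 fold change 8.93, SE 0.18, adjusted p = 3.3e-14). It supplied most of the summed level of the list, which went from 344 and 284 to 12062 and 11429 CPM. MYL7, the atrial regulatory light chain, rose from 0.721 and 0.687 to 174 and 132 CPM, and MYL4, the atrial essential light chain, from 0.0225 and 0 to 84.6 and 69.9 CPM, at least 902-fold higher. TNNT2 (chr1:201328136-201346892 of GRCh37, minus strand), cardiac troponin T, rose from 0.113 and 0.412 to 9.44 and 8.11 CPM (log2 fold change 5.51, SE 0.55, adjusted p = 5.7e-07). MYH6 (chr14:23851191-23877482 of GRCh37, minus strand), the atrial myosin heavy chain, rose from 0.158 and 0 to 14.1 and 8.23 CPM (log2 fold change 6.47, SE 0.49, adjusted p = 3.0e-08). The cardiac troponin I gene TNNI3 fell from 3.90 and 2.25 to 0.156 and 0.165 CPM. NEBL (chr10:21068902-21581940 of GRCh37, minus strand), a nebulin relative of the heart Z-disc, fell from 134 and 116 to 46.3 and 36.6 CPM (log2 fold change -1.63, SE 0.14, adjusted p = 8.8e-08).

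Calcium handling and ion channel genes divided, with 8 of 20 rising (31.4% of all genes did) and 11 falling (34.6%). Of the 20, 4 were called higher (5.30% of all genes) and 2 lower (4.52%), and the median log2 fold change was -0.77. RYR2 (chr1:237205484-237997288 of GRCh37, plus strand), the calcium release channel of heart muscle, fell from 188 and 163 to 11.9 and 8.98 CPM (log2 fold change -4.10, SE 0.15, adjusted p = 9.1e-12). TRDN, its partner triadin, fell from 151 and 162 to 1.92 and 4.73 CPM, a log2 fold change of -5.54. The sodium-calcium exchanger SLC8A1 rose from 2.17 and 2.66 to 44.8 and 45.4 CPM, a log2 fold change of 4.24. PLN, which restrains the calcium pump, was at 0 in both day 2 libraries and at 1.04 and 0.906 CPM at day 6, at least 11.3-fold higher. KCNH2, a potassium channel, fell by 2.89 on the log2 scale. RYR2 and TRDN were thus well above 100 CPM in both day 2 libraries and under 12 CPM in both day 6 libraries.

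**Figure D2:**
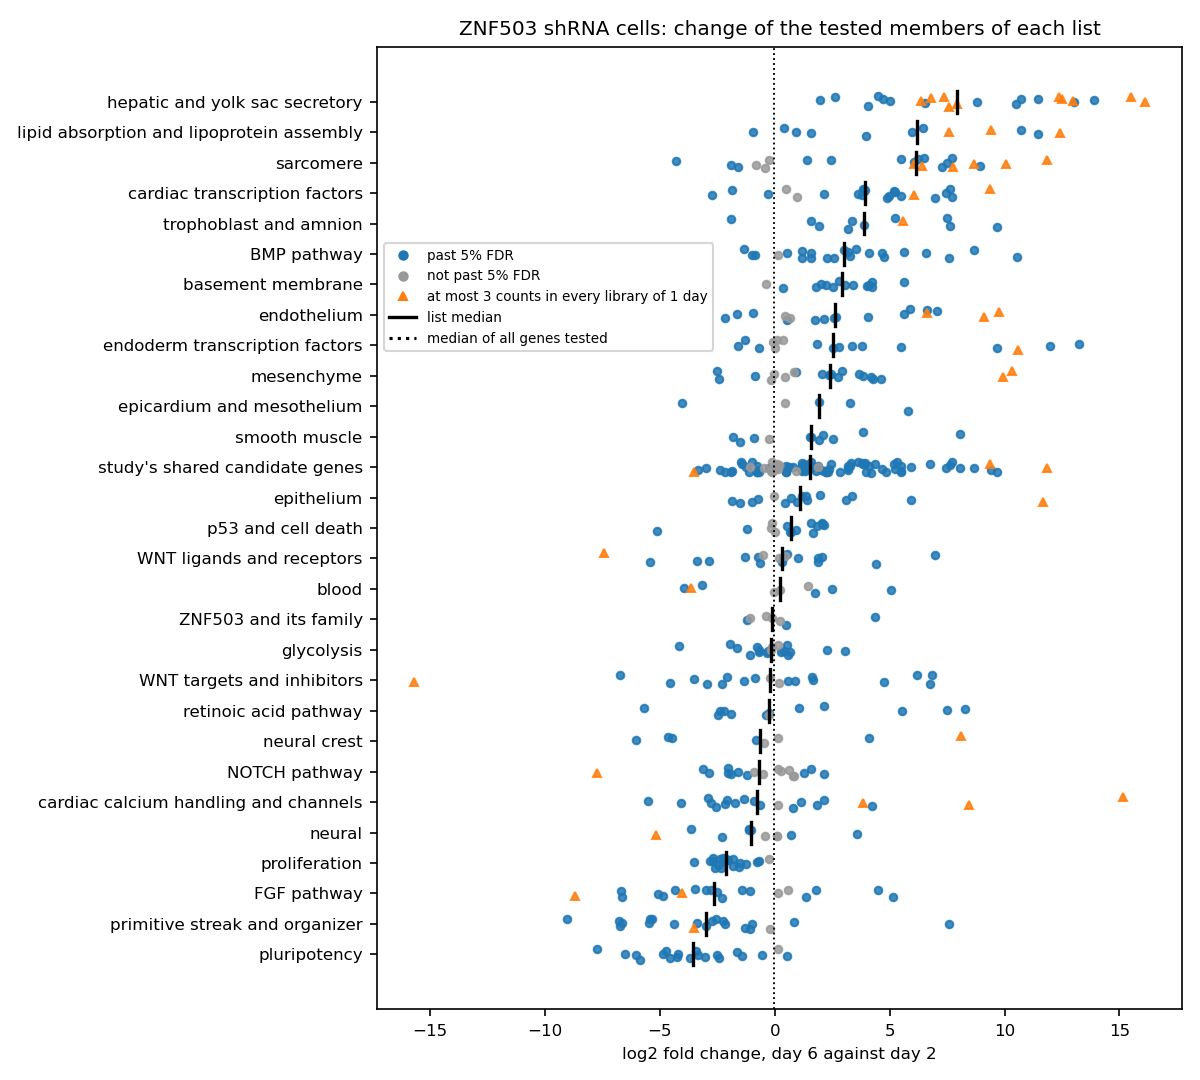
Log2 fold changes (day 6 minus day 2) of the tested members of each gene list with at least 5 tested members, sorted by the list's median (black bar). Blue points passed 5% FDR, grey points did not, orange triangles had at most 3 counts in every library of 1 day, and the dotted line is the median of all genes. The hepatic and yolk sac list stands at the top with a median of 7.95 and the pluripotency list at the bottom with -3.56.

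Pluripotency genes were the list that fell most. Of 20 members 18 fell (34.6% of all genes did), 13 were called lower (4.52% of all genes) and the median log2 fold change was -3.56. NANOG, a homeobox factor of the pluripotent state, fell from 114 and 107 to 0.622 and 0.453 CPM (log2 fold change -7.73, SE 0.18, adjusted p = 1.1e-13). POU5F1 (OCT4) fell from 674 and 655 to 7.31 and 7.45 CPM (log2 fold change -6.52, SE 0.13, adjusted p = 3.3e-14). The RNA-binding protein LIN28A was the exception that did not pass, at 1339 and 1380 CPM against 1503 and 1562 CPM (log2 fold change 0.14, SE 0.11, adjusted p = 0.26). In a fit of all lines at days 2 and 6 its small rise did pass 5% FDR (0.18, adjusted p = 0.047). SALL4 rose by 0.53 on the log2 scale.

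Of 21 tested genes of the primitive streak and nascent mesendoderm 18 fell, 11 of them called, and 2 rose (median -3.00, or -2.74 with bounds). CER1, a secreted inhibitor of NODAL, BMP and WNT, fell from 615 and 712 to 1.30 and 1.28 CPM (log2 fold change -9.04, SE 0.18, adjusted p = 3.1e-14). TBXT, the brachyury factor of the streak, fell from 30.4 and 40.1 to 0.207 and 0.412 CPM, a log2 fold change of -6.80. MIXL1, GSC and EOMES fell by 6.73, 5.33 and 4.39 on the log2 scale. The WNT antagonist DKK4 had the largest loss over all genes, from 122 and 171 CPM to 0 in both libraries, at least 1049-fold lower. Other members of the 10 largest losses were LINC00678 (at least 498-fold lower), the prohormone convertase gene PCSK1 (at least 258-fold), FGF4 (at least 211-fold), the cytidine deaminase gene CDA (at least 173-fold), CER1 and CSMD1. The last 3, SNAR-C1, SNAR-C2 and SNAR-C5, are near-identical copies with the same counts, and their day 2 levels of 98.4 and 12.8 CPM differed widely between replicates.

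Signalling genes changed in opposite directions by pathway. Of 23 tested BMP genes 19 rose (31.4% of all genes did) and 3 fell (BMPR1A, CHRD and CHRDL1). Of the 23, 11 were called higher (5.30% of all genes), and the median log2 fold change was 3.00. The ligand BMP2 rose from 4.19 and 5.45 to 236 and 237 CPM (log2 fold change 5.64, SE 0.18, adjusted p = 2.1e-12). BMP6 and BMP5 rose by 10.55 and 8.69 on the log2 scale, and BMP4 by 1.57. The antagonist NOG rose by 7.58, and the targets and feedback inhibitors SMAD6, ID1 and SMAD7 by 4.77, 3.52 and 2.58.

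Of 20 FGF genes 14 fell, 9 of them called, and 4 rose, with a median log2 fold change of -2.65. The ligands FGF4, FGF17 and FGF19 and the targets ETV4, ETV5, SPRY4 and DUSP6 fell, while the 4 receptors rose. FGF17 fell from 56.2 and 66.5 to 0.622 and 0.618 CPM and FGF19 from 25.2 and 26.9 to 0.104 and 0.371 CPM. DUSP6 (chr12:89741012-89746278 of GRCh37, minus strand), a phosphatase that ERK induces and that acts back on it, fell from 266 and 262 to 25.5 and 23.5 CPM (log2 fold change -3.46, SE 0.12, adjusted p = 4.7e-12). The receptor FGFR4 rose from 9.07 and 7.88 to 352 and 274 CPM (log2 fold change 5.16, SE 0.15, adjusted p = 1.3e-12). FGFR3, FGFR1 and FGFR2 rose by 4.48, 1.79 and 1.35 on the log2 scale. Ligands and targets were thus low and receptors high in the same 2 day 6 libraries.

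WNT ligands and receptors showed no common direction, with 9 of 19 rising, 7 falling and a median log2 fold change of 0.32. WNT11, a ligand of the planar pathway, rose from 0.620 and 0.321 to 75.9 and 61.7 CPM, while WNT5A fell from 35.5 and 35.1 to 4.77 and 5.19 CPM. Of 19 tested WNT targets and secreted inhibitors 8 rose and 9 fell (median -0.23). The inhibitor FRZB rose from 4.42 and 5.09 to 339 and 353 CPM and SFRP2 fell from 150 and 158 to 2.44 and 0.659 CPM. SP5 and LEF1, which respond to beta-catenin, fell by 4.57 and 2.97 on the log2 scale, and TNFRSF19 rose by 6.86. NOTCH pathway genes fell in 8 of 18 cases and rose in 3 (median -0.70), with HES6 down by 3.11 and NOTCH2 up by 1.59 on the log2 scale. Retinoic acid genes also divided, with 5 of 13 rising (31.4% of all genes did) and 7 falling (34.6%), and a median of -0.27. ALDH1A1, which makes retinoic acid, rose from 1.07 and 0.275 to 258 and 292 CPM, whereas CRABP1, which binds it in the cytoplasm, fell from 92.9 and 88.8 to 1.61 and 1.98 CPM. CYP26A1, which degrades it, fell from 74.7 and 102 to 24.1 and 24.6 CPM.

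Extracellular matrix rose as a group. Of 14 basement membrane genes 13 rose, 7 were called, only LAMA4 did not pass, and the median log2 fold change was 2.93. COL4A1 (chr13:110801310-110959504 of GRCh37, minus strand), a chain of the network-forming collagen, rose from 68.9 and 57.6 to 3542 and 2829 CPM (log2 fold change 5.62, SE 0.15, adjusted p = 5.1e-13). The laminin chain LAMA1 rose from 139 and 127 to 2759 and 2403 CPM (log2 fold change 4.25, SE 0.13, adjusted p = 1.3e-12). COL4A6, COL4A2, LAMB1, SPARC and HSPG2 rose by 4.23, 4.12, 4.03, 3.41 and 3.06 on the log2 scale. The summed level of the list went from 1253 and 1208 to 17231 and 13743 CPM.

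Epithelial and mesenchymal genes both rose more often than they fell. Of 16 tested epithelial genes 11 rose and 4 fell (median 1.08). The simple epithelium keratin KRT19 rose from 25.9 and 24.7 to 1611 and 1497 CPM, a log2 fold change of 5.91, and CDH1 (E-cadherin) fell from 230 and 245 to 83.4 and 86.1 CPM. Of 20 tested mesenchymal genes 13 rose (31.4% of all genes did), 3 fell and 7 were called higher (5.30% of all genes), with a median of 2.41. The intermediate filament gene VIM rose from 31.7 and 29.2 to 829 and 684 CPM, and fibronectin (FN1) from 219 and 209 to 4602 and 3792 CPM. PDGFRA, a growth factor receptor of mesoderm and primitive endoderm, rose from 34.1 and 39.3 to 637 and 715 CPM (log2 fold change 4.18, SE 0.13, adjusted p = 2.0e-12). ZEB2, the repressor targeted in another line, had 10.4 and 13.9 CPM at day 2 and 11.2 and 12.9 CPM at day 6, a log2 fold change of -0.03 (SE 0.22, adjusted p = 0.90).

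Of 20 proliferation genes 19 fell and MCM2 did not pass, with a median log2 fold change of -2.14. Their summed level went from 4273 and 4389 to 957 and 1003 CPM. TOP2A, the topoisomerase of mitotic chromosomes, fell from 1126 and 1178 to 148 and 184 CPM (log2 fold change -2.83, SE 0.14, adjusted p = 1.8e-10). The checkpoint kinase BUB1, the reductase subunit RRM2, the DNA clamp PCNA and the proliferation antigen MKI67 fell by 3.50, 2.71, 2.70 and 2.36 on the log2 scale. Glycolysis genes divided, with 7 of 19 rising (31.4% of all genes did) and 9 falling (34.6%), and a median of -0.17 against -0.05 over all genes. The glucose transporter SLC2A3 rose from 731 and 705 to 5997 and 6246 CPM, and PDK1, a pyruvate dehydrogenase kinase, fell from 394 and 431 to 25.6 and 21.6 CPM (log2 fold change -4.16, SE 0.14, adjusted p = 3.9e-12). Of 15 p53 and cell death genes 10 rose and 2 fell (median 0.72). DDIT3, a stress transcription factor, rose by 2.12 and PMAIP1, a p53-induced death gene, fell by 5.13 on the log2 scale.

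Markers of other cell types that the cultures could hold were checked beside these results. Of 18 endothelial genes 13 rose (31.4% of all genes did) and 8 were called higher (5.30%). Their summed level nevertheless went from 313 and 319 to 207 and 256 CPM, as KDR and FLT1, present at day 2, fell by 0.94 and 2.15 on the log2 scale. The defining genes CDH5 (9.23 and 13.6 CPM) and PECAM1 (2.96 and 4.90 CPM) were present at day 6. Of 9 tested blood genes 3 rose and 3 fell, the list summed to 19.3 and 22.0 CPM at day 6, and GATA1, HBZ, HBA1 and HBA2 held at most 3 counts in every library. Neural genes fell in 6 of 11 tested cases and rose in 2, with summed levels of 459 and 466 CPM at day 2 and 421 and 349 CPM at day 6. Of 8 tested neural crest genes 4 fell and 2 rose (median -0.66). Of 11 tested trophoblast and amnion genes 10 rose (31.4% of all genes did) and 8 were called higher (5.30%), with a median of 3.88, or 3.52 with bounds. Their summed level rose from 33.8 and 27.3 to 358 and 396 CPM. The day 6 sum was higher in WT cells (812 and 877 CPM) and ZEB2 shRNA cells (1465 and 1603 CPM), and lower in NKX2-5 shRNA cells (197 and 196 CPM). Of 12 members tested against WT cells, 6 had a lower and 1 a higher change. GATA3, shared by trophoblast, amnion and other tissues, rose from 0.0901 and 0 to 63.9 and 56.9 CPM, and ELF5, a defining trophoblast factor, had 0.934 and 1.03 CPM at day 6. Of 11 smooth muscle genes 7 rose and 3 fell (median 1.57), and of 5 tested epicardial genes 3 rose and 1 fell. Only 2 of 33 HOX genes could be tested. HOXB2 rose, to 0.415 and 0.906 CPM, and was lost without day 2 replicate 1 (adjusted p = 0.081) or day 6 replicate 2 (adjusted p = 0.098). The part that any of these cell types plays in the results above was not tested.

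The change over the same days was then compared with the other lines in 1 fit of 16 libraries and 17355 genes, where a difference is the log2 fold change in the ZNF503 shRNA cells minus that in the other line. These comparisons share the 4 ZNF503 shRNA libraries. Against WT cells 4027 genes differed upward (23.2%) and 4336 downward (25.0%), and 271 (1.56%) and 391 (2.25%) of them by at least 8-fold at 1% FDR. Against the ZEB2 shRNA cells 3437 (19.8%) and 3740 (21.5%) differed, and the 8-fold counts were 190 (1.09%) and 361 (2.08%). Against the NKX2-5 shRNA cells they were 109 (0.628%) and 50 (0.288%), and the 50 became 26 without ZNF503 shRNA day 2 replicate 1. At 5% FDR that last comparison gave 1570 genes upward (9.05%) and 1284 downward (7.40%), a split that turned to 1325 and 1737 without normalization factors. List counts in the comparisons below are to be read against these shares of all genes.

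Most sarcomere and proliferation genes, and 11 of 21 calcium handling and channel genes, had a lower change than in WT cells, while 4 of the calcium and channel genes had a higher one. Of 23 sarcomere genes 17 had a lower change than in WT cells (25.0% of all genes did) and the other 6 did not pass (median difference -5.18, against -0.03 over all genes), and the summed day 6 level was 55608 and 45392 CPM in WT cells. TNNT2 reached 1421 and 1151 CPM in WT cells at day 6, with a difference of -6.42 (SE 0.75, adjusted p = 3.3e-06). NEBL went from 24.1 and 21.7 to 4103 and 3292 CPM in WT cells (difference -8.92, SE 0.21, adjusted p = 2.4e-14). TTN did not pass, at 57.6 and 63.7 and then 30094 and 24804 CPM in WT cells (difference 0.14, SE 0.17, adjusted p = 0.55), and its day 2 level was also lower in the ZNF503 shRNA cells. MYH6 reached 4644 and 3961 CPM in WT cells (difference -7.25, SE 1.15, adjusted p = 6.8e-05), but its day 2 counts were so few that without day 2 replicate 1 of the ZNF503 shRNA cells the difference was -2.22 (adjusted p = 0.95).

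Of 24 cardiac transcription factors 9 had a lower change than in WT cells (25.0% of all genes did). A higher change was seen in 5, a share near the 23.2% of all genes. TBX5 (difference -7.82, SE 0.66, adjusted p = 9.0e-08), HAND2 (-6.32) and MEF2C (-6.02) were lower, and TBX3 (5.27, SE 0.28, adjusted p = 5.1e-10) was higher. NKX2-5 did not pass (difference -2.80, SE 1.28, adjusted p = 0.082), with 84.6 and 50.6 CPM in WT cells at day 6. RYR2 rose in WT cells, from 74.1 and 70.6 to 719 and 489 CPM (difference -7.13, SE 0.26, adjusted p = 6.8e-12). DUSP6 moved the opposite way in WT cells, from 233 and 229 to 633 and 442 CPM (difference -4.64, SE 0.21, adjusted p = 9.9e-11), as did PDK1, from 367 and 361 to 1548 and 1201 CPM (difference -6.04). Of 20 proliferation genes 18 had a lower change than in WT cells (median difference -1.19), and TOP2A kept 669 and 674 CPM in WT cells at day 6 (difference -2.22, SE 0.16, adjusted p = 1.2e-08).

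**Figure D3:**
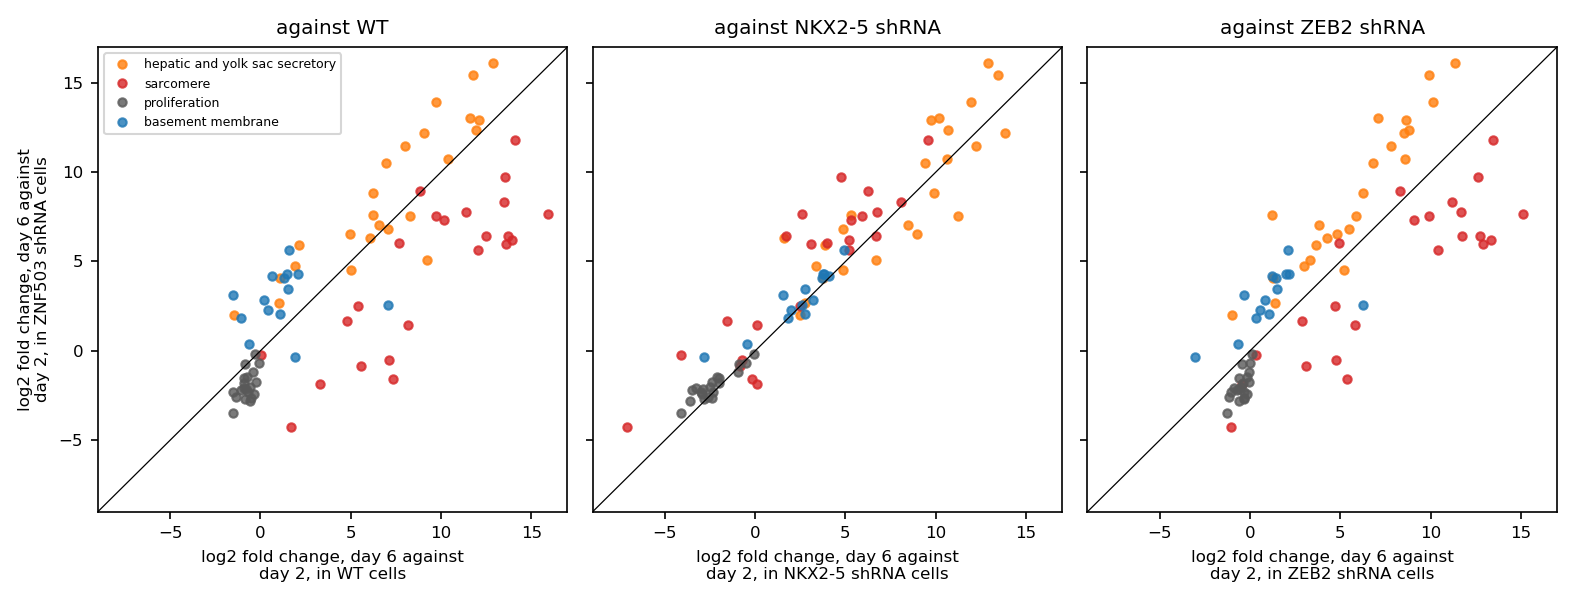
Log2 change from day 2 to day 6 of each gene in the ZNF503 shRNA cells (vertical axis) and in the WT, NKX2-5 shRNA or ZEB2 shRNA cells (horizontal axis), from the fit of all lines. Colours mark hepatic, sarcomere, proliferation and basement membrane genes, and the diagonal marks equal change. Sarcomere and proliferation genes lie below the diagonal against WT, by medians of 5.18 and 1.19 log2 units, and basement membrane genes above it by 2.43.

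Most basement membrane genes had a higher change than in WT cells, while most hepatic genes did not pass. Of 14 basement membrane genes 12 had a higher change (23.2% of all genes did) and 1 (NID2) a lower one (median difference 2.43), and COL4A1 reached only 130 and 287 CPM in WT cells at day 6 (difference 4.05, SE 0.33, adjusted p = 6.2e-08). Of 17 endoderm transcription factors 9 had a higher and 1 a lower change (median difference 1.18). Of 24 hepatic genes 7 had a higher change (APOA2, APOB, APOC1, APOE, TF, AMBP and CUBN), a share near the 23.2% of all genes, and the other 17 did not pass (median difference 1.63). TTR and HNF4A had 131 and 250 CPM and 36.8 and 86.0 CPM in WT cells at day 6, but both started near 0 in each line, so their difference in change could not be measured well. The summed hepatic level at day 6 was 1282 and 2314 CPM in WT cells, below both ZNF503 shRNA libraries.

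Some of the genes with an upward difference had a lower day 2 level than in WT cells. SOX17 fell in WT cells, from 54.5 and 59.3 at day 2 to 5.49 and 7.60 CPM at day 6 (difference 6.95, SE 0.33, adjusted p = 1.6e-10), and the ZNF503 shRNA cells were below WT at day 2 and above it at day 6. PDGFRA was at 397 and 408 CPM at day 2 and 943 and 822 CPM at day 6 in WT cells (difference 3.08, SE 0.14, adjusted p = 1.0e-10), so that the ZNF503 shRNA cells were lower at both times. GATA6 had 70.4 and 65.5 CPM in WT cells at day 2, against 9.24 and 14.5 CPM (difference 3.63). CXCR4, a chemokine receptor, and LHX1, a homeobox factor, both expressed in early mesendoderm, were likewise lower at day 2, with CXCR4 at 3.01 and 2.79 CPM against 50.3 and 57.2 CPM and LHX1 at 24.4 and 34.0 CPM against 281 and 318 CPM in WT cells. CER1, at 615 and 712 CPM at day 2, compared with 1926 and 1962 CPM in WT cells. NANOG, at 114 and 107 CPM at day 2, compared with 48.0 and 46.9 CPM in WT cells. Levels at day 2 were not compared by a test of their own.

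The fewest genes differed from the NKX2-5 shRNA line. Of 24 hepatic genes 1 (APOA4) had a higher change than in that line (9.05% of all genes did) and 1 (RBP4) a lower one (7.40%), and its summed day 6 level was 14934 and 15059 CPM. Sarcomere genes were higher in 5 and lower in 1 (median difference 1.65), with a summed day 6 level of 8507 and 8376 CPM. COL4A1 reached 1631 and 1798 CPM there and did not pass (difference 0.73, SE 0.32, adjusted p = 0.14), although it did without the count filter (adjusted p = 0.018) and with the libraries of the 2 lines only (adjusted p = 0.016). Proliferation genes fell less in the ZNF503 shRNA cells than in the NKX2-5 shRNA cells, with 9 of 20 higher and the rest not past the test (median difference 0.49), and TOP2A fell from 1350 and 1144 to 98.4 and 104 CPM there (difference 0.85, SE 0.15, adjusted p = 0.0011). The endoderm factor SOX17 separated the lines, as it fell from 53.6 and 66.5 to 32.0 and 39.0 CPM in the NKX2-5 shRNA cells (difference 4.62, SE 0.32, adjusted p = 3.5e-08). A p above the threshold in this comparison does not show that the lines changed alike.

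**Figure D4:**
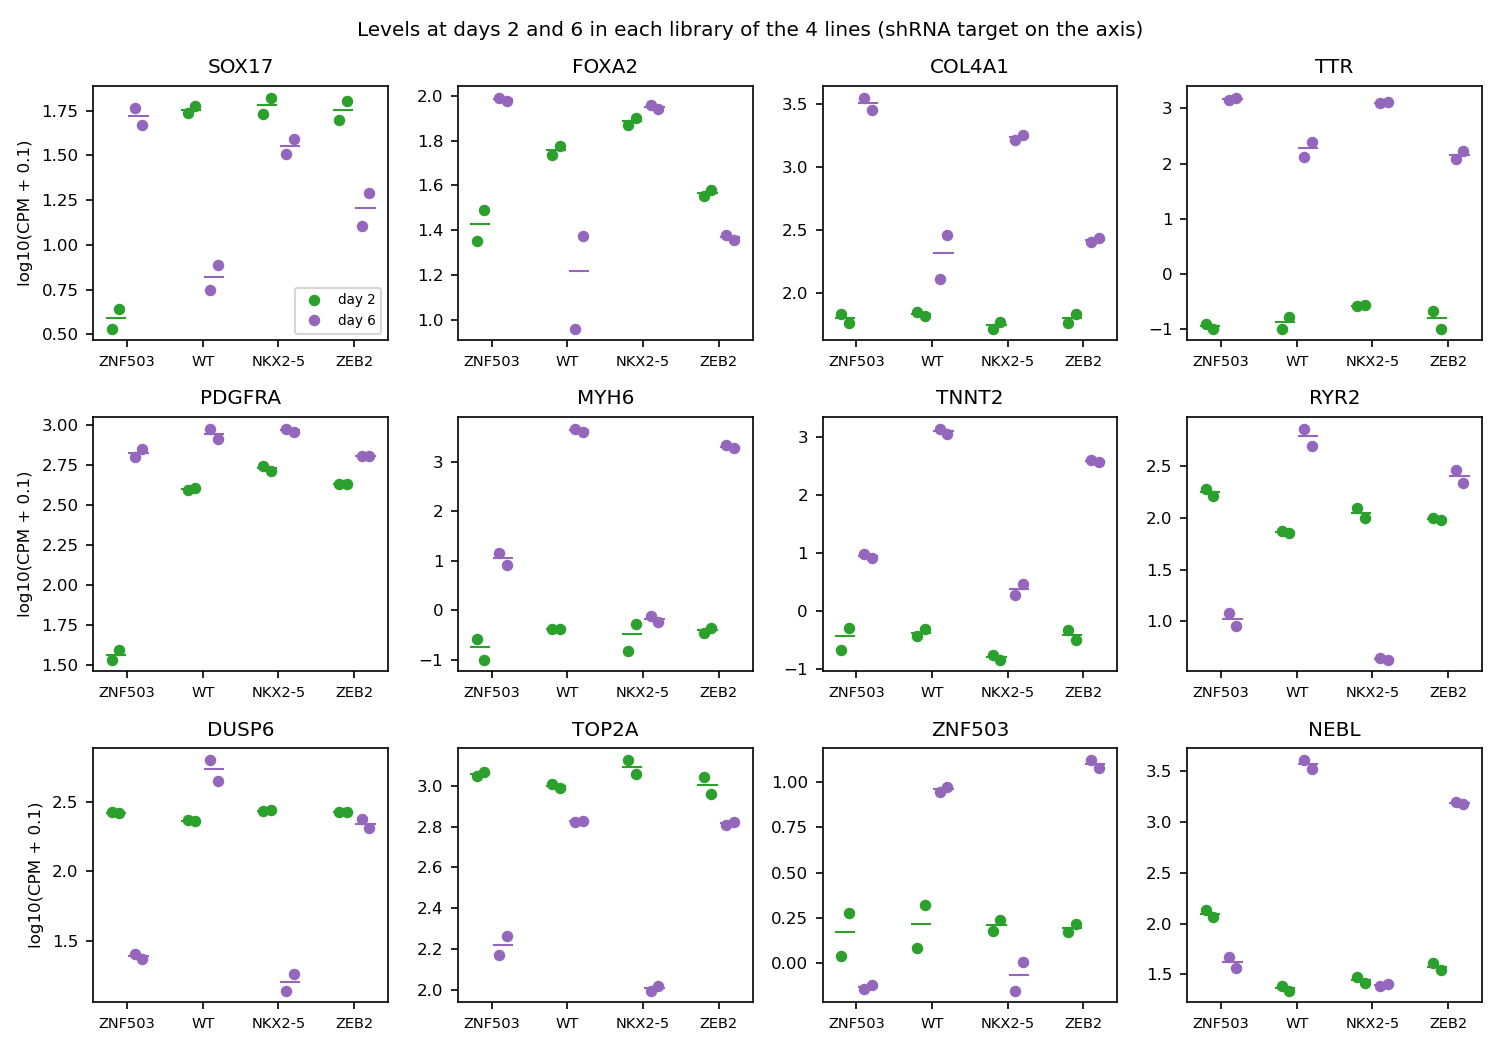
Levels, as log10(CPM + 0.1), of 12 genes in each library of the WT, NKX2-5 shRNA, ZEB2 shRNA and ZNF503 shRNA lines at day 2 (green) and day 6 (purple), each panel with its own scale. Points are libraries and horizontal lines are means of 2. The ZNF503 and NKX2-5 shRNA lines share high COL4A1 and TTR and low TNNT2, RYR2 and DUSP6 at day 6, and SOX17 is low at day 2 only in the ZNF503 shRNA line.

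Against the ZEB2 shRNA cells some lists went as against WT cells and others did not. Of the sarcomere genes 15 had a lower change (21.5% of all genes did) and 1 a higher change (median difference -3.24), of 14 basement membrane genes 12 had a higher and 1 a lower change (2.07), and of 20 proliferation genes 18 had a lower change (-1.45). Of 24 hepatic genes 8 had a higher change (19.8% of all genes did) and the other 16 did not pass (2.89). Primitive streak genes were higher in 12 and lower in 1 of 21 against WT cells but higher in 6 and lower in 7 against ZEB2 shRNA cells. Glycolysis genes were higher in 5 and lower in 10 of 19 against WT cells and higher in 9 and lower in 3 against ZEB2 shRNA cells. ZNF503 itself rose in the ZEB2 shRNA cells, from 1.38 and 1.55 to 13.2 and 11.8 CPM (difference -4.10, SE 0.48, adjusted p = 3.7e-06).

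The 98 genes that the study ranked as shared cardiogenic candidates were also followed. Of 94 tested 60 rose (31.4% of all genes did), 18 fell (34.6%) and 16 did not pass. Of the 94, 33 were called higher (5.30% of all genes) and 3 lower (4.52%), and the median log2 fold change was 1.52. Of 97 tested for the difference from WT cells, 26 had a higher change, a share near the 23.2% of all genes. A lower change was seen in 34 (25.0% of all genes). The list was drawn up by the study from chromatin marks and expression in differentiating cells, so it is not independent evidence of its direction.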

How the data were processed

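Stranded total RNA libraries were made from Trizol RNA and sequenced as paired ends. Per the labels and the study's methods, the authors mapped reads to GRCh37 (hg19) with TopHat2 2.0.14, Bowtie2 2.2.1.0 and SAMtools 0.1.19.0, with at most 2 mismatches and only the best hit (1) of each read, and deposited raw counts of reads per RefSeq gene region from RSeQC. The strand setting of that count and the treatment of introns are not given in the sources used here, and only the best hit was kept, so near-identical copies may share reads. Of 41627 RefSeq accessions, 40281 (96.8%, with 97.1% of counts) were matched to a symbol and 1346 were left out. For each of 23185 symbols the accession with the largest total count was kept. In 4 columns of day 10 libraries the rows do not follow these accessions, and those columns were not used.

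The counts were tested with edgeR 4.0.16 in R 4.3.3 (TMM scaling, filterByExpr, glmQLFit and glmQLFTest, Benjamini-Hochberg adjustment, two-sided). The day 6 against day 2 contrast was fitted on the ZNF503 shRNA libraries of days 0, 2 and 6, and differences between lines as an interaction on the 16 libraries of 4 lines at days 2 and 6. SE is the log2 fold change divided by the root of its F statistic. The fit was tested on simulated data. DESeq2 1.42.0 (with limma 3.58.1 loaded) was an alternative, beside other scalings, filters, accessions, fits, thresholds and the removal of each library. Library totals ran from 13806093 to 87840757 counts, and precision at low levels was set by the 3-count limit.

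The members and the gene lists were chosen with earlier results of these data known. Named genes are ZNF503, up to 4 members per list with the largest change in each direction, the 10 largest gains and losses at 10 CPM or more, the 5 largest differences in each direction per line, and genes the study's text names. APOE, CUBN, LIN28A, GATA6, PDGFRA, ACTC1, BMP2, BMP4, DUSP6, ETV5, SPRY4, LAMB1, HSPG2, SPARC, VTN, the TLE genes and the promoters shown were chosen after their values were seen. Some genes that this rule picks are not reported here. Gene coordinates are those of GENCODE lifted to GRCh37, and promoters are RefSeq sequences on GRCh38.p14, a different build, so no coordinate was carried between them.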

Additional observations from a re-analysis of the deposited data

Results flagged for a closer look

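The change from day 2 to day 6 differed between lines in a test of the difference itself, with the 8-fold and 1% FDR threshold passed upward and downward by 271 and 391 genes against WT cells, 109 and 50 (26 without ZNF503 shRNA day 2 replicate 1) against NKX2-5 shRNA cells and 190 and 361 against ZEB2 shRNA cells. These comparisons share the ZNF503 shRNA libraries.

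Against WT cells the 5 most positive differences at 10 CPM or more included those of the receptor gene GPR55 (10.19), the water channel AQP3 (7.09), SOX17 (6.95) and CYP26A1 (6.46). GPR55 was at 0 in both day 2 libraries and at 17.7 and 16.5 CPM at day 6, and AQP3 went from 0.0789 and 0 to 30.9 and 20.8 CPM. CYP26A1 fell in both lines, from 629 and 672 to 1.87 and 2.17 CPM in WT cells and from 74.7 and 102 to 24.1 and 24.6 CPM in ZNF503 shRNA cells. The 5 most negative were PPP1R3A (-13.00), the potassium channel partner KCNIP4 (-11.63), the muscle gene SMPX (-11.62), the neurotrophin receptor NTRK2 (-10.71) and CBLN2 (-10.71). In WT cells these were at 0 at day 2 and reached 27.1 and 23.0 CPM for PPP1R3A, 46.9 and 39.4 for KCNIP4, 120 and 90.4 for SMPX, 21.4 and 29.1 for NTRK2 and 182 and 148 for CBLN2, while no ZNF503 shRNA library held over 1.35 CPM. The sizes rest on few counts, and without ZNF503 shRNA day 2 replicate 1 those of PPP1R3A, NTRK2 and CBLN2 became -8.99, -6.02 and -7.23 and no longer passed, as did SMPX without day 2 replicate 2 (-9.0).

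Against NKX2-5 shRNA cells the most positive were CXCR4 (6.45), the secreted matrix protein RELN (6.04), IGSF21 (5.76), SLC7A14 (5.75) and the potassium channel KCNH5 (5.33). CXCR4 had 132 and 138 CPM at day 2 and 15.3 and 16.5 CPM at day 6 in NKX2-5 shRNA cells, against 3.01 and 2.79 and then 29.5 and 29.8 CPM in ZNF503 shRNA cells. RELN went from 0.800 and 0.916 to 97.4 and 72.3 CPM, against 19.1 and 14.1 and then 20.7 and 31.7 CPM. IGSF21, SLC7A14 and KCNH5 instead fell in both lines. Their log2 fold changes were -3.62, -1.25 and -2.05 in ZNF503 shRNA cells and -9.38, -7.00 and -7.37 in NKX2-5 shRNA cells. At day 2 the NKX2-5 shRNA cells were higher, at 19.1 and 21.0, 18.6 and 19.3, and 11.6 and 11.4 CPM. The ZNF503 shRNA cells then had 3.07 and 3.30, 1.95 and 1.88, and 0.834 and 0.962 CPM. The 5 most negative included the blood and endothelial factor TAL1 (-6.05), VAT1L (-5.83), AMN, the partner of cubilin (-4.78), and the semaphorin SEMA3C (-4.76). For TAL1 the ZNF503 shRNA cells already had 1.42 and 1.10 CPM at day 2, against 0 and 0.0840 CPM, and for SEMA3C 32.7 and 24.9 CPM, against 1.45 and 2.27 CPM. AMN was lower at day 6 in ZNF503 shRNA cells, at 2.65 and 1.73 CPM, against 53.7 and 55.7 CPM.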

How the results depend on the processing

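Without any 1 library the day 6 against day 2 calls ranged over 809 to 887 higher and 650 to 739 lower. The differences ranged over 220 to 404 and 300 to 429 against WT, 93 to 105 and 26 to 48 against NKX2-5 shRNA, and 150 to 203 and 280 to 374 against ZEB2 shRNA. The 26 came without ZNF503 shRNA day 2 replicate 1, the deepest library, against 50 with it. At 4-fold and 10% FDR the counts were 1525 and 1623 (day 6 against day 2), 1004 and 981 (WT), 433 and 241 (NKX2-5) and 702 and 983 (ZEB2). At 5% FDR with no fold threshold they were 5274 and 5809, 4027 and 4336, 1570 and 1284, and 3437 and 3740. Among counts, 121 of the alternative values lay within 1.5 times the reported one and 17 did not. Of the alternative list medians, 237 kept their sign and moved by no more than the SD of that median between the day 6 replicates, 139 kept their sign and moved by more, and 2 turned. Without normalization factors the median difference from WT over all genes moved from -0.026 to 0.081, and the differences above are relative to that shift. Same-numbered replicates did not deviate together (r from -0.114 to 0.095), so the numbers pair nothing, and with the replicate block the counts were 881 and 736, 268 and 387, 105 and 49, and 183 and 351. Signs turned only for values near 0. RUNX1 became 0.00064 with DESeq2's size factors, 0.018 with DESeq2, 0.015 on log2(CPM + 1), and -0.22 to 0.21 without 1 library (0.21 without day 2 replicate 1, 0.051 without day 6 replicate 2). ZEB2 became 0.021 with size factors, 0.017 with DESeq2, 0.0047 with days 2 and 6 only, 0.014 with all lines, and -0.27 to 0.21 without 1 library (0.21 without day 2 replicate 2, 0.092 without day 6 replicate 1). KLF1 ranged from -0.45 (without day 6 replicate 2) to 0.63. The ZNF503 difference from NKX2-5 shRNA cells ranged from -0.53 to 0.31 without 1 library (0.041 and 0.30 without their day 2 replicate 1 or day 6 replicate 2, 0.31 without ZNF503 shRNA day 2 replicate 2). The median of WNT targets and inhibitors became 0.0077 with days 2 and 6 only and ranged from -0.68 to 0.19 (without day 2 replicate 2) without 1 library. The cause of these turns was not tested. Of the single genes' alternative values, 3264 kept direction and side of the 5% FDR threshold, 37 lost that threshold, 3 gained it and 12 turned. For gene differences between lines 1020 values kept both, 15 lost the threshold, 2 gained it and 3 turned. The rise of LIN28A passed with all lines (0.18, adjusted p = 0.047). The fall of ZNF503 passed with all lines (-1.0, adjusted p = 0.032) and without day 2 replicate 1 (-1.54, adjusted p = 0.049), and the COL4A1 difference from NKX2-5 shRNA cells passed without the count filter (0.71, adjusted p = 0.018) and with the libraries of the 2 lines only (0.71, adjusted p = 0.016). Depth limited genes below about 3 counts a library, which is why 210 of the higher and 283 of the lower calls have a bound in place of a fold.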
